A study of Mus musculus with 24 samples.

Results

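The peaks described here are consensus H3K4me3 peaks that overlapped, by at least 1 bp, a gene annotated in GENCODE vM21 as miRNA, snoRNA, scaRNA or snRNA. Of 13447 peaks on chromosomes 1 to 19 and X, 293 did so, and they covered 397 of 5136 such genes. The series mapped chromatin binding by ChIP-seq in C127, a line of mammary epithelial cells from the mouse. Its 24 samples fell into 12 groups, of which the 3 replicates of H3K4me3 ChIP were used here through 1 consensus list, while 21 samples of other groups are left out. The list holds positions only. No level, depth or replicate value stood behind a peak, so presence, position and width were the measurements available. As a check of the label, the luminal keratin genes Krt8 and Krt18 and the epithelial adhesion genes Cdh1 and Epcam had no peak within 250 bp of a transcription start site (TSS), while 2 of 7 luminal markers (Gata3 and Esr1) and 2 of 3 mesenchymal markers (Vim and Fn1) did. None of the 3 basal markers, the blood marker Ptprc or the endothelial marker Pecam1 had one.

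Trimethylation of histone H3 at lysine 4 marks the start of genes transcribed by RNA polymerase II, mostly at CpG islands. Small RNAs reach their mature form along several routes. Most snoRNAs, which guide the modification of ribosomal RNA, are trimmed out of the introns of a host gene and share its promoter. scaRNAs do the same work on spliceosomal RNAs in Cajal bodies. miRNAs are cut from hairpins in longer primary transcripts, whose start can lie far from the hairpin. Most spliceosomal snRNAs have promoters of their own, used by RNA polymerase II, or by RNA polymerase III in the case of U6 and U6atac. A hairpin or snoRNA without a peak therefore does not show that its primary transcript lacked one.

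The miRNAs whose hairpins lay under a peak included members of well known seed families, shown here because some families were marked in part and others in full. Mature sequences are from RefSeq (GRCm38.p6), written 5′ to 3′, with bases 2 to 8, the seed that pairs with target RNAs, in capitals. Of the 13 genes whose mature RNA carries the let-7 seed, 2 had a peak. Of the 6 genes with the miR-125 seed, 2 had one, as did 2 of the 3 genes with the miR-148 seed. Both genes with the miR-132 seed, and both with the miR-193 seed, lay under a peak.
let-7e-5p: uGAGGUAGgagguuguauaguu
let-7i-5p: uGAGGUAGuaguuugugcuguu
miR-125a-5p: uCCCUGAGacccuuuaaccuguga
miR-125b-5p: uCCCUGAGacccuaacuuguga
miR-148a-3p: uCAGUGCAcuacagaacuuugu
miR-152-3p: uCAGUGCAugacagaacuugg
miR-132-3p: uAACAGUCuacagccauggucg
miR-212-3p: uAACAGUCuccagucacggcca
miR-193a-3p: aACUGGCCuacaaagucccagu
miR-193b-3p: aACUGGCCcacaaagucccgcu

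A further set is shown because the peak over the hairpin had no coding or lncRNA TSS of the GENCODE basic set within 250 bp. miR-17, miR-18a and miR-19a lay under 1 peak of 501 bp, with the nearest TSS of that set 709 bp away.
miR-21a-5p: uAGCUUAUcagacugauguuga
miR-30a-5p: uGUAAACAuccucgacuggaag
miR-199a-5p: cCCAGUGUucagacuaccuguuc
miR-17-5p: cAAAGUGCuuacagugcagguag
miR-18a-5p: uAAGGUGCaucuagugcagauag
miR-19a-3p: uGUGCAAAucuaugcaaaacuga

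Members of the other types at peaks with no TSS of the basic set are shown as gene sequences read from the RefSeq genome (GRCm38.p6). In the box C/D snoRNAs the capitals mark box C (TGATGA) and the last CTGA, the letters of box D. The 3 Snord14 copies lie in Hspa8 at chr9:40803583-40804837. Snord14c and Snord14d differed at 2 of 86 positions. Snord104 lies at chr11:106500993-106501062. The Snord14 peak did have a TSS of a GENCODE transcript outside the basic set within 250 bp, and the Snord104 peak one of a RefSeq transcript. Box C followed by box D was found on the gene strand of 64 of 86 C/D genes with a peak (74.4%) and 260 of 305 without one (85.2%), and on the other strand of 0 and 0. It was found in 0 of 51 H/ACA genes with a peak and 5 of 716 without.
Snord14c: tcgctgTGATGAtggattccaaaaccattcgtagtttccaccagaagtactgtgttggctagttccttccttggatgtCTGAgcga
Snord14d: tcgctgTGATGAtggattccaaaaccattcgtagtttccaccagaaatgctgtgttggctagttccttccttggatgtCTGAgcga
Snord14e: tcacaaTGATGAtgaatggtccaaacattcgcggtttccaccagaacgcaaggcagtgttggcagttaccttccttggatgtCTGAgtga
Snord104: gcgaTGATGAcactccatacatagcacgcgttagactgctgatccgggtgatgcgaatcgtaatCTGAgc

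Among the snRNA genes at such peaks were a U2 gene, Gm25939 (chr1:72255008-72255198), and a pair of U4 genes, while Gm25044 and Gm24996 lay under peaks of 2643 bp and 1627 bp. The U4 genes Gm24265 (chr5:115489459-115489599) and its neighbour Gm24407 differed at 2 of 141 positions. The peak over this pair and that over Gm25044 did have a RefSeq TSS within 250 bp. Capitals mark the letters ATTTNTG, in the manner of the binding site for Sm proteins. They were found on the gene strand of 6 of 32 snRNA genes with a peak (18.8%) and 277 of 1350 without (20.5%), and on the other strand of 1 and 175. All 3 U2 and both U4 genes with a peak held them. A match is a description of the letters only.
Gm25939: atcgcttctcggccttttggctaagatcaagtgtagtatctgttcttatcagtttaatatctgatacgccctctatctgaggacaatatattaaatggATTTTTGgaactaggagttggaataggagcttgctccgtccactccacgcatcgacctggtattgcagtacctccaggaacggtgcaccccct
Gm24265: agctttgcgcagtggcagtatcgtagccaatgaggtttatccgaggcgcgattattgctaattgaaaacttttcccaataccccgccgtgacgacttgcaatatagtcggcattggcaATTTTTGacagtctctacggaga

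To find how often each type of small RNA gene lay under H3K4me3, genes with a peak were counted by type. A peak overlapped 212 of 2196 miRNA genes (9.65%, 95% Wilson interval 8.49 to 10.96%), 148 of 1507 snoRNA genes (9.82%, 8.42 to 11.4%), 5 of 51 scaRNA genes (9.80%, 4.26 to 21.0%) and 32 of 1382 snRNA genes (2.32%, 1.64 to 3.25%). The intervals of miRNA, snoRNA and scaRNA genes overlapped, and that of snRNA genes lay below all of them. They cover counting only, since neighbouring genes share a peak. Over the 4 types together the share was 7.73%. For scale, a window of the median small RNA gene length, 107 bp, overlapped a peak at 1.51% of all positions on these chromosomes. A peak lay within 250 bp of a TSS at 49.4% of coding genes and 16.7% of lncRNA genes. In 378 of the 397 genes the whole gene lay inside the peak.

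Genes with a symbol of their own were then set against gene models known only by a number. Among genes with a symbol, 82 of 165 snoRNA genes (49.7%, 42.2 to 57.2%), 144 of 1181 miRNA genes (12.2%, 10.4 to 14.2%), 3 of 8 scaRNA genes and 1 of 11 snRNA genes had a peak. Among numbered models the counts were 66 of 1342 snoRNA genes (4.92%, 3.88 to 6.21%), 68 of 1015 miRNA genes (6.70%, 5.32 to 8.41%), 2 of 43 scaRNA genes and 31 of 1371 snRNA genes. The share was higher among genes with a symbol for snoRNA and miRNA genes, whose intervals did not overlap.

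Next, genes were split by place. A gene was called hosted if it lay within a coding or lncRNA gene on the same strand, antisense only if such a gene lay on the other strand alone, and independent otherwise. Of the 397 genes with a peak, 287 were hosted (72.3%, 67.7 to 76.5%), 50 were antisense only and 60 were independent. A peak overlapped 135 of 664 hosted snoRNA genes (20.3%, 17.4 to 23.6%), 3 of 215 antisense only and 10 of 628 independent ones (1.59%, 0.867 to 2.91%). For miRNA genes the shares were 135 of 1133 hosted (11.9%, 10.2 to 13.9%), 42 of 320 antisense only (13.1%, 9.86 to 17.3%) and 35 of 743 independent (4.71%, 3.41 to 6.48%). The antisense-only miRNA genes with a peak included a set of numbered models opposite histone H2A genes. Among them were Gm44390 and Gm44486, 261 and 262 bp from the nearest TSS. For snRNA genes they were 15 of 302 hosted (4.97%, 3.03 to 8.03%), 5 of 302 antisense only and 12 of 778 independent (1.54%, 0.884 to 2.68%). Hosted genes thus had a higher share than independent genes in these 3 types, with intervals that did not overlap. For a window of the median small RNA gene length, the share over all positions was 1.51%. That share lay inside the intervals of independent snoRNA and snRNA genes and below the interval of independent miRNA genes. Independent snoRNA and snRNA genes were therefore not set apart from it. The scaRNA counts, 2 of 31 hosted and 3 of 15 independent, were too few to order.

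**Figure D1:**
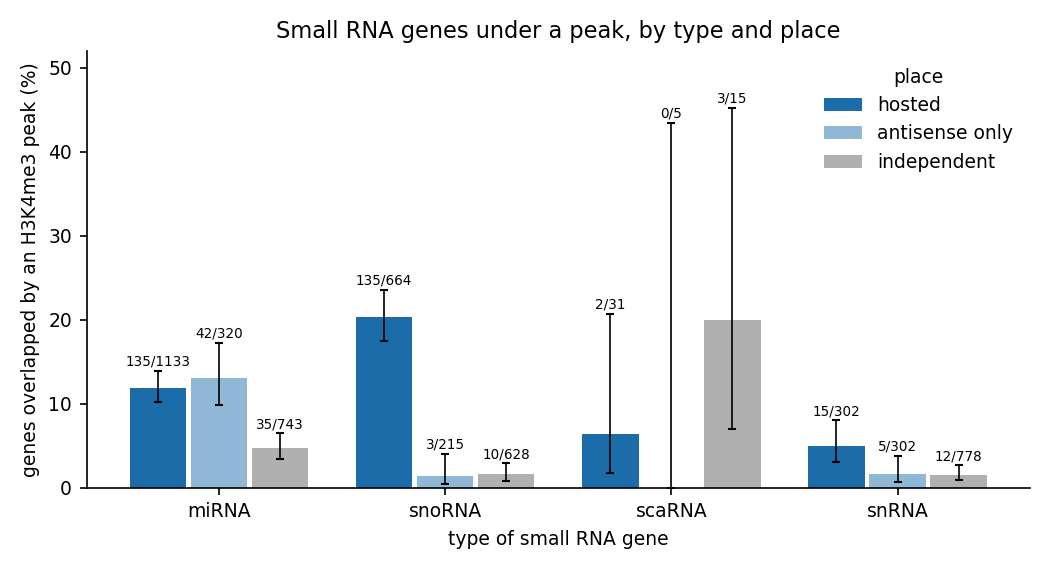
Share of small RNA genes overlapped by an H3K4me3 peak (y axis, %) by type (x axis) and place (colour), with 95% Wilson intervals and the counts above each bar. Hosted snoRNA genes reached 20.3% and independent snoRNA genes 1.59%, while antisense-only miRNA genes stood at 13.1%, beside hosted ones at 11.9%. A window of the median small RNA gene length overlapped a peak at 1.51% of all positions.

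At which promoter did these peaks lie? Of the 293 peaks, 263 were within 250 bp of a coding or lncRNA TSS (89.8%, 85.8 to 92.7%), against 9773 of the 13154 other peaks (74.3%) and 74.6% of all peaks. A rule that asks for overlap favours wide peaks. The other peaks had a median width of 3070 bp at a TSS and 1128 bp at none, so this contrast was not separated from width. A coding TSS was present at 241 of the 263 peaks and only a lncRNA TSS at 22. By type, a TSS was within 250 bp of 76 of 79 peaks over snoRNA genes (96.2%), 170 of 192 over miRNA genes (88.5%), 3 of 4 over scaRNA genes and 26 of 30 over snRNA genes (86.7%). Counted by gene, 132 of 135 hosted snoRNA genes with a peak lay under a peak at a TSS of their own host, and the other 3 were the Snord14 copies in Hspa8. For hosted miRNA genes this was 117 of 135, with 9 under a peak at the TSS of another gene only and 9 under a peak at no TSS. Among hosted snRNA genes it was 12 of 15.

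Outside hosts, 44 of 50 antisense-only genes and 43 of 60 independent genes with a peak lay under a peak at the TSS of another gene. Of these 44 antisense-only genes, 29 lay downstream of the nearest TSS on the opposite strand, at a median of 402 bp from it. Since they were chosen as lying within a gene on the other strand and under a TSS peak, the definition favours this arrangement. Of the 43 independent genes, 17 lay upstream of the nearest TSS on the opposite strand, the arrangement of a divergent pair, and 13 upstream on the same strand. Snord13, the U13 RNA of 18S ribosomal RNA processing, was of the divergent kind and lay 348 bp from the TSS of Tti2. Scarna17 lay 728 bp from that of Acaa2 in the same arrangement. Snord118, the U8 RNA needed for 28S ribosomal RNA, lay 2616 bp downstream of the TSS of Tmem107 under a peak of 4267 bp.

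The share of hosted genes under a peak followed the distance from the host TSS, measured to the nearest one upstream. Within 2 kb of a TSS of a host that carried a TSS peak, 98 of 105 snoRNA genes (93.3%, 86.9 to 96.7%) and 85 of 100 miRNA genes (85.0%, 76.7 to 90.7%) were covered. Between 2 and 5 kb these fell to 36 of 75 snoRNA genes (48.0%, 37.1 to 59.1%) and 24 of 76 miRNA genes (31.6%, 22.2 to 42.7%). Beyond 5 kb, 0 of 162 snoRNA genes (upper limit 2.32%) and 6 of 438 miRNA genes (1.37%) were covered. Where the host had no TSS peak, 0 of 319 snoRNA genes (upper limit 1.19%) and 7 of 487 miRNA genes (1.44%) lay under any peak. Over hosted genes of all types within 2 kb, with or without a host peak, 194 of 320 had one (60.6%, 55.2 to 65.8%). A peak at the host TSS covers a gene only if it reaches that far. These shares therefore describe in large part how far promoter peaks extend and are no measure of the small RNAs' own activity. Some hosted genes lay under other peaks, among them 9 miRNA and 3 snoRNA genes under a peak at no TSS.

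**Figure D2:**
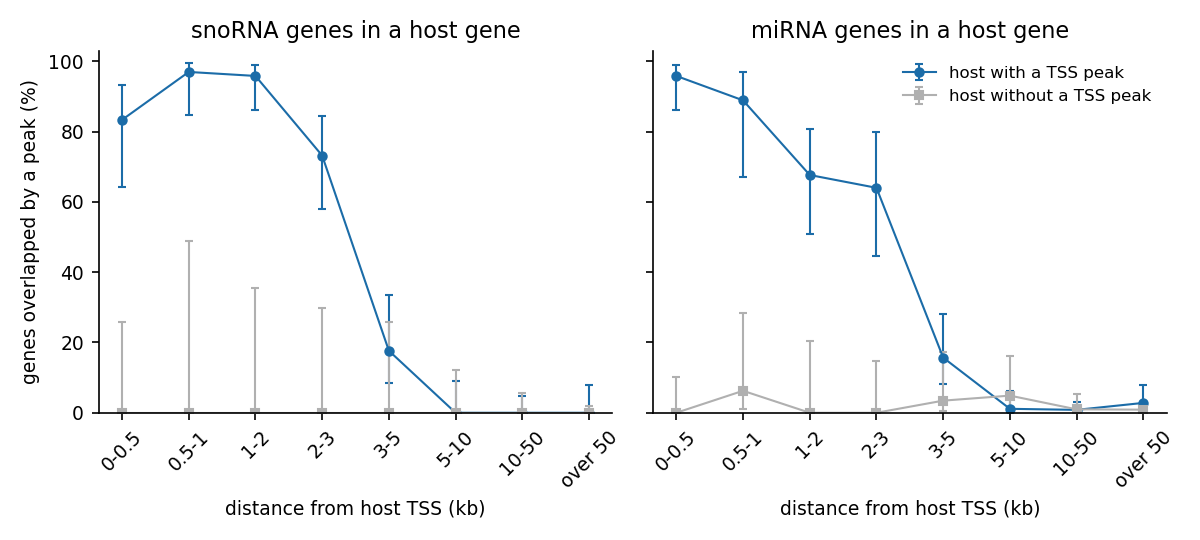
Share of hosted snoRNA genes (left) and miRNA genes (right) overlapped by a peak (y axis, %) by distance from the nearest upstream TSS of the host (x axis, kb, bins of unequal size), for hosts with and without a TSS peak, with 95% Wilson intervals. With a host peak both curves are high within 2 kb and near 0 beyond 5 kb. Without one, snoRNA genes are at 0 in every bin.

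Hosts of snoRNAs were grouped as ribosomal protein genes, other coding genes and lncRNA genes, with the highest share of covered snoRNAs in the first group. Ribosomal protein genes were taken by symbol, Rpl, Rps or Rplp followed by a number. Rpsa, whose symbol has no number, was therefore counted among the other coding hosts. Of the 55 snoRNA genes in 29 of these hosts, 47 had a peak (85.5%, 73.8 to 92.4%), in 28 hosts. The share was 42 of 292 in other coding hosts (14.4%, 10.8 to 18.9%) and 46 of 317 in lncRNA hosts (14.5%, 11.1 to 18.8%). The median distance to the host TSS was shortest in the group with the highest share, at 1659 bp in ribosomal protein genes, 14528 bp in other coding hosts and 59560 bp in lncRNA hosts, between which the share did not differ beyond its interval. All 29 hosts of the first group had a TSS peak, as did 160 of 214 other coding hosts and 25 of 66 lncRNA hosts. The 8 snoRNA genes of these 29 hosts that were missed lay 3286 to 6843 bp from the host TSS, with the peak ending 474 to 4052 bp upstream of them. Of these 8, Snord83b in Rpl3 was the nearest to its peak and Gm26387 in Rpl5 the farthest. Snora62 in Rpsa was also missed, 2571 bp from the host TSS and 199 bp past the peak's end. This grouping of hosts was made with results of these data known.

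Of the 293 peaks, 236 covered 1 small RNA gene model, 31 covered 2 and 26 covered 3 or more. The peak of Gas5, a lncRNA gene known for its load of box C/D snoRNAs, was 6149 bp wide (chr1:161032458-161038606) and covered 10 gene models, among them Snord78, Snord80 and Snord47. All 10 small RNA models of Gas5 lay under it. The peak of Snhg1 (chr19:8720971-8726472, 5502 bp) covered all 8 of that gene, including Snord22. At Rpl13a a peak of 9067 bp covered, among others, Snord32a, Snord33, Snord34 and Snord35a, beside Mir150 and Mir5121. Mir150 is best known from lymphocytes. It lay outside Rpl13a, 96 bp upstream of the TSS of the lncRNA gene Gm45552.

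4 gene models each lay under peaks at Rpl23a, Eif4a2, Snhg12 and Spaca6. The last, 6300 bp wide (chr17:17825518-17831817), held the hairpins of Mir99b, Mirlet7e and Mir125a. The peaks with 3 gene models were those of Eef1b2, Rps12, Atp5b, Rack1, 2410006H16Rik, Rpl17, Snhg7os, Rpl7a, Nop56, Zfas1, Rabggtb, B4galt1, Rpl27a, Rpl4, Dalrd3, Hspa8, Mir17hg and the Snord104 locus. Some models share a symbol at Gas5, Snhg12, Eef1b2, Atp5b, Snhg7os and the Snord104 locus, so these peaks hold fewer distinct genes. Nop56, itself a core protein of box C/D particles, had 3 of its 5 snoRNA genes under the peak. Its Snord57 lay 559 bp past the peak's end. In Snhg12, 4 of 5 models were covered and Snord99 lay 299 bp beyond.

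Peaks over small RNA genes were wider than the others, as a rule that asks for overlap favours, so no test was made. Their median was 3832 bp (quartiles 2854 and 5074, range 501 to 17854), against 2624 bp in the other peaks (1562 and 3709). Among peaks at a TSS the medians were 3940 bp over small RNA genes and 3070 bp elsewhere, and among peaks at no TSS 1884 bp and 1128 bp. Peaks with 3 or more small RNA genes had a median of 4898 bp, those with 1 gene 3769 bp. By type the medians were 3980 bp for miRNA, 3816 bp for snoRNA, 4957 bp for scaRNA (4 peaks) and 2834 bp for snRNA.

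**Figure D3:**
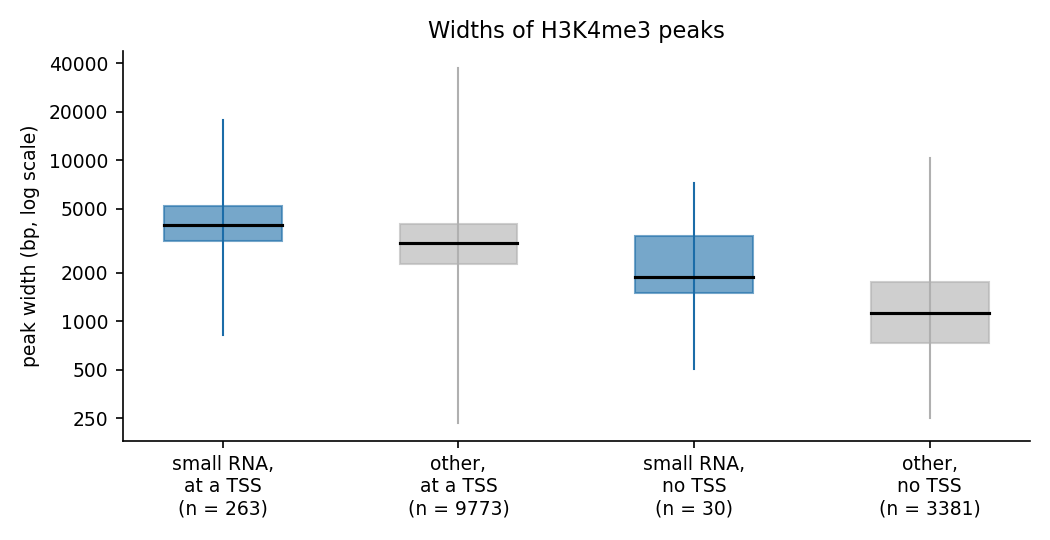
Peak width (y axis, bp, log scale) of peaks over small RNA genes and of other peaks, at a TSS (left pair) and at no TSS (right pair). Boxes give the quartiles, black lines the median and vertical lines the full range. The medians are 3940, 3070, 1884 and 1128 bp from left to right.

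The 15 widest peaks ranged from 9047 to 17854 bp. The widest lay in the HoxC cluster at the TSS of Hoxc9 and covered Mir196a-2, and a second of 14787 bp lay at Trps1 over Mir1907. A peak of 13087 bp spanned 5 replication-dependent histone genes on chromosome 13 and covered the miRNA models Gm44390 and Gm44486. Others were at Rpl7a and Surf1 (12080 bp, 3 snoRNA models), at Ring1 (12045 bp, Mir219a-1 and Mir219c), at Akt1s1 (11642 bp, Mir707), at Myh9 (11320 bp, the snRNA model Gm22107) and at Cnn2 (11142 bp, the U6 model Gm26243). Gm25328, Mir6968, Gm26115, Gm23421, Mir125b-1, Mir150 with its neighbours, and Mir7009 completed them. The last was the narrowest, at Anxa5.

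Of the 293 peaks, 30 had no coding or lncRNA TSS within 250 bp. They covered miRNA genes in 22 cases, snRNA genes in 4, snoRNA genes in 3 and a scaRNA gene in 1. 10 were over hosted genes, 14 over independent genes and 6 over antisense-only genes. The nearest TSS was within 1 kb for 4 of them, more than 5 kb away for 21 and more than 10 kb away for 16. Adding every GENCODE transcript and the RefSeq transcripts gave 9 of them a TSS, and 21 kept none. Other GENCODE transcripts gave one to the peaks over Mir21a, Mir8119 and the Snord14 copies. RefSeq transcripts gave one to those over Mir3083, Mir193b, Mir8120, Gm25044, Snord104 and the pair of U4 genes. The median ratio of observed to expected CpG, which nears 1 in CpG islands, was 0.386 in these peaks, against 0.271 in the other 3381 peaks at no TSS and 0.514 in small RNA peaks at a TSS.

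The widest of these peaks, 7249 bp, lay over Mir21a (chr11:86581200-86588448), whose RNA is abundant in many epithelial and tumour cells. The hairpin is in the gene Vmp1, 99678 bp from the nearest upstream TSS of that gene, and the peak began 4290 bp upstream of the hairpin and ended 2867 bp past it. A transcript outside the GENCODE basic set starts there. The next was over Mirlet7i, 5843 bp wide (chr10:122982905-122988747), with the nearest TSS 87278 bp away and the hairpin near its middle, 3023 bp of the peak lying upstream and 2735 bp downstream. Its observed to expected CpG ratio was 0.792, the highest of the 30. Mir193a had a peak of 5202 bp (chr11:79710511-79715712) and its paralog Mir193b one of 4021 bp (chr16:13446721-13450741). Mir148a had a peak of 2682 bp with the nearest TSS at 16475 bp.

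Narrower peaks lay over Mir30a (1203 bp, chr1:23271257-23272459), Mir199a-1 (860 bp) and the Mir17hg cluster (501 bp, chr14:115043588-115044088). The Mir30a peak covered 1012 bp upstream of the hairpin and 120 bp downstream. In Mir17hg the small peak took in Mir17, Mir18 and Mir19a, and ended 69 bp before Mir20a, 217 bp before Mir19b-1 and 339 bp before Mir92-1. The host's TSS had a peak of its own, and the nearest TSS lay 709 bp from the small peak. Mir7000, Mir3083, Mir7671, Mir8120, Mir3092, Mir8119, Mir3968, Mir7688 and Mir7228, and n-TStga1, which is a tRNA name typed as miRNA, made up the other named miRNA genes.

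The bases around Mirlet7i and Mir30a show how different such hairpins can be. The 200 bp centred on the Mirlet7i hairpin (chr10:122985583-122985782, minus strand) held 16 CpGs and those on Mir30a (chr1:23272205-23272404, plus strand) held 5, with each CG in capitals. The median was 10.5 CpGs in miRNA genes with a peak (quartiles 4 and 19, n = 212) and 3 in those without (1 and 5, n = 1984).
Mirlet7i: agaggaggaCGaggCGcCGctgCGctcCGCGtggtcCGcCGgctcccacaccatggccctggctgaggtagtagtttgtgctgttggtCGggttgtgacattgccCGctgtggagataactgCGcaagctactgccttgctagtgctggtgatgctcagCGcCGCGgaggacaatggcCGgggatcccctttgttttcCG
Mir30a: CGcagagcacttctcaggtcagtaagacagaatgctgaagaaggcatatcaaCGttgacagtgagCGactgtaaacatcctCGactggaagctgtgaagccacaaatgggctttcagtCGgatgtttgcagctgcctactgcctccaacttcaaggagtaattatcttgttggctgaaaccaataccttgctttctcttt

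Base composition was compared between covered and uncovered genes. Over 501 bp centred on the gene, the median GC content was 59.7% in miRNA genes with a peak and 46.5% in those without, and the CpG ratio was 0.605 and 0.217. For snoRNA genes the GC medians were 46.9% and 45.3% and the CpG ratios 0.320 and 0.143, and for snRNA genes 43.9% and 40.3%, and 0.437 and 0.225.

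Scarna2 was the scaRNA gene at a peak with no TSS within 250 bp. The peak was 1498 bp wide (chr3:108553431-108554928), with the nearest TSS 7242 bp from it. Whether this peak belongs to Scarna2 was not tested. The peak reached only 177 bp upstream of its 5′ end and 907 bp past its 3′ end. The other scaRNA genes with a peak were Scarna13 in Snhg10 (6207 bp), Gm26083 in Snhg20 (5726 bp), and Scarna17 with Gm23119 at Acaa2 (4187 bp). Scarna3a, Scarna3b, Scarna6 and Scarna8 had none.

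**Figure D4:**
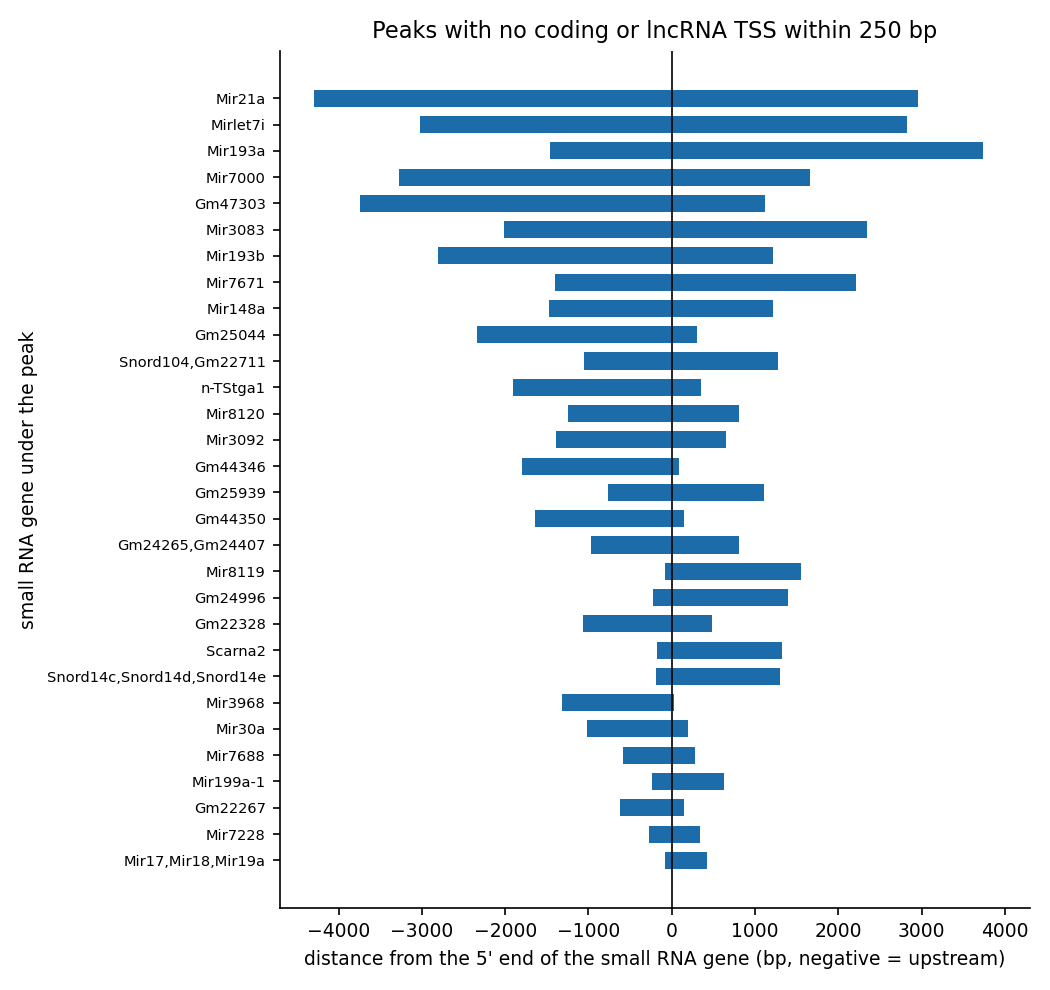
The 30 peaks with no coding or lncRNA TSS within 250 bp, each drawn to scale as a bar around the 5′ end of its small RNA gene (x axis, bp, negative is upstream in the direction of the gene; the most upstream gene where there are several), sorted by width from Mir21a (7249 bp) to the Mir17, Mir18 and Mir19a peak (501 bp). Rows are named by the genes covered.

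Among the lists of miRNA families and clusters, 25 of 309 genes (8.09%) had a peak, in 14 of 29 lists. The background was 7.73% for all small RNA genes, 9.65% for all miRNA genes and 12.2% for miRNA genes with a symbol. Both genes were covered in the miR-132 and miR-212 pair (1823 bp, in 1700016P03Rik) and in the miR-191 and miR-425 pair (6563 bp, at Dalrd3). Mir148a and Mir152 had a peak, while Mir148b did not. In the list of miR-31, miR-210, miR-193, miR-365 and miR-22, 4 of 7 were covered: Mir193a, Mir193b, Mir210 and Mir22. Mir210, known from hypoxia, lay under a peak of 7544 bp and Mir22 under one of 7117 bp in its host Mir22hg. Mir125a, Mir125b-1 and Mir99b were covered of 8 genes of the miR-10, miR-99, miR-100 and miR-125 list. Mir125b-1 lay 18 bp from the TSS of the lncRNA gene Gm28119 under a peak of 9358 bp.

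Other lists were covered at 1 to 3 places. Mirlet7e and Mirlet7i were the covered genes of 12 in the let-7 list, which left Mir98, Mirlet7a-1, Mirlet7a-2 and Mirlet7b among those without. Mir30a (of 6), Mir26b (of 3), Mir196a-2 (of 4), Mir21a (of 3) and Mir150 (of 8 miRNAs of blood cells) were alone in theirs. Mir130a was covered of 5 in the miR-130 and miR-301 list, which does not hold Mir301, itself under a peak of 6641 bp in Ska2. In the Sfmbt2 and X-linked arrays 1 of 102 was covered, Mir467f, whose gene lies apart from the arrays near Fxr2. Over 50% of the surrounding 50-bp words recur elsewhere for 41 of these 102 genes, for which a missing peak is not informative.

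No peak overlapped a gene in 15 lists with 128 genes together, beside a share of 9.65% over all miRNA genes. Outside the Dlk1-Dio3 cluster, the upper limits of these lists ran from 24.2% (0 of 12) to 79.3% (Mir122). All of those lists are thus too short to be set apart from that share. None of the 55 miRNA genes of the imprinted Dlk1-Dio3 cluster had a peak (upper limit 6.53%), and the nearest peak upstream of any of them was 610814 bp away. The embryonic miR-290 and miR-302 genes (0 of 12), the neural miR-9, miR-124 and miR-7 genes (0 of 9), the muscle miR-1, miR-133 and miR-206 genes (0 of 8) and the hepatocyte gene Mir122 lacked one. So did lists known from epithelia, the miR-200 family (0 of 5) and the miR-205 and miR-203 pair. For the miR-200 genes the closest upstream peak was 13939 bp away. The miR-29 (0 of 4), miR-34 and miR-449 (0 of 6), miR-15 and miR-16 (0 of 7), miR-181 (0 of 6) and miR-23, miR-24 and miR-27 (0 of 6) genes had none over the hairpin. Mir15b, in an intron of Smc4 4781 bp from a TSS with a peak, lay 410 bp past the peak's end.

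Among snoRNA lists, 38 of 65 other box C/D genes (58.5%, 46.3 to 69.6%) and 25 of 40 H/ACA genes (62.5%, 47.0 to 75.8%) had a peak. The background was 9.82% for all snoRNA genes and 49.7% (82 of 165) for snoRNA genes with a symbol, which lies inside both intervals. The box C/D snoRNA genes of the Prader-Willi region had none (0 of 19, upper limit 16.8%). The share of 50-bp words around them that recur elsewhere in the genome had a median of 90.8%, and reads without a unique position had been discarded, so a missing peak there is not informative. In the list of U3, U8, U13 and other RNAs of ribosomal RNA processing, 9 of 20 genes had a peak, including Snord118, Snord13, Snord14a and Snora73a with Snora73b. The U3 genes did not, and over 50% of the surrounding words recur elsewhere for 8 of the 20 genes. Rnu3a, though, lay 131 bp past the end of a peak on its 5′ side. By RefSeq product name, 86 of 391 C/D genes (22.0%, 18.2 to 26.4%) and 51 of 767 H/ACA genes (6.65%, 5.09 to 8.64%) were covered over all models.

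Genes that a peak came close to without reaching were counted as well. Over all types, 44 of 5136 genes (0.857%) were not overlapped but had a peak edge within 250 bp. For 38 of the 44 the peak lay on the 5′ side. Beside the 32 snRNA genes overlapped, 17 more (1.23% of 1382) had a peak edge within 250 bp. For 16 of the 17 the peak lay on the 5′ side. In miRNA genes the same count was 17 (0.774% of 2196) beside 212 overlapped, 12 of them on the 5′ side. In snoRNA genes it was 10 (0.664% of 1507) beside 148, all 10 on the 5′ side. The count beside a peak was thus large in snRNA genes mainly against their low count of overlaps. Rnu12, of the minor spliceosome, lay 14 bp from a peak and Rnu11, its partner, 16 bp. The U2 genes Gm23444 and Gm25360 were 9 bp and 99 bp away. The U5 genes Gm24871, Gm25099 and Rnu5g were at 125 to 206 bp, and the U1 gene Gm22513 at 40 bp. A coding or lncRNA TSS lay 24 bp from Rnu11, 260 bp from Rnu12, 315 bp from Gm24871 and 885 bp from Gm22513. The nearest one was 6373 to 15038 bp from Rnu5g, Gm25099, Gm25360 and Gm23444. Whether these peaks belong to the snRNA genes was not tested.

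By kind, a peak overlapped 3 of 29 U2, 2 of 11 U4, 16 of 708 U6, 2 of 16 U6atac and 1 of 45 U7 genes. It overlapped none of 123 U1 (upper limit 3.03%), 11 U5, 5 U11 or 4 U12 genes, but 2 U1, 3 U5, 1 U11 and 1 U12 gene had a peak edge within 250 bp. The gene with a symbol of its own was Rnu7, the U7 RNA of histone mRNA processing, 88 bp from the TSS of Grcc10 (chr6:124741225-124741286) under a peak of 2251 bp. The 3 U2 genes were Gm24497 (peak of 820 bp), Gm25939 (1872 bp) and Gm23849 (2338 bp). Of 12 independent snRNA genes with a peak, 9 lay under a peak at the TSS of another gene.

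The snRNA genes were also compared with the named gene of their kind. Of 13 U2 genes of the same length as Rnu2-10 and at least 95% identical to it, 3 were overlapped and 2 lay within 250 bp, against 0 and 0 of the 16 others. For U6 the counts were 4 and 4 of 175 copies of Rnu6, against 12 and 1 of 533 others. Over all U6 genes together, 2.26% were overlapped. For U1 they were 0 and 1 of 15 copies of Rnu1a1, against 0 and 1 of 108 others. Over 50% of the surrounding words recurred elsewhere for 6 of the 15 U1 copies, 3 of the 13 U2 copies and 23 of the 175 U6 copies. The part of unmappable sequence in the missing peaks was not tested.

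**Figure D5:**
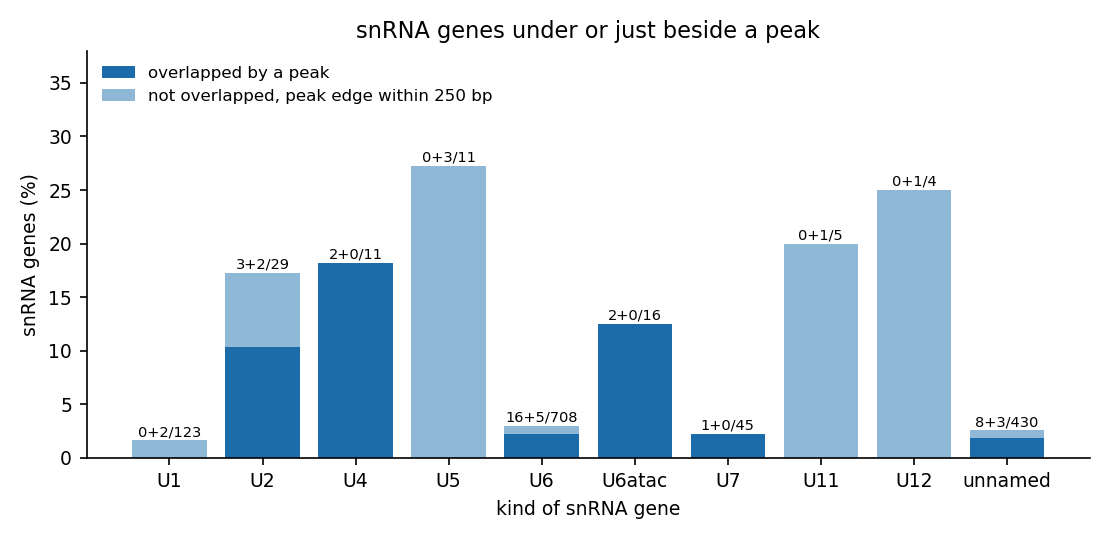
Share of snRNA genes (y axis, %) of each kind (x axis) overlapped by a peak (dark) or not overlapped but with a peak edge within 250 bp (light), with overlapped + beside / all genes above each bar. U5, U11 and U12 genes appear only in light, with 3, 1 and 1 genes beside a peak, and U4 and U6atac only in dark, with 2 genes each.

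At the edge of the 1 bp rule, the genes overlapped least were Gm22942 and Snora81 with 11 bp each, the U4 gene Gm24407 with 12 bp and Gm49346 with 14 bp. Just outside were Gm23444 at 9 bp, Gm23100 and Gm24019 at 12 bp, Rnu12 at 14 bp, Rnu11 at 16 bp and Gm22061 at 20 bp. All 6 of these were snRNA genes with the peak on their 5′ side.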

How the data were processed

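H3K4me3 ChIP-seq of C127 cells was used, through the 1 peak list deposited for its 3 replicates. By the study's methods, the authors aligned reads to mm10 with bowtie2, discarded reads without a unique position, removed duplicates with SAMtools, called peaks with MACS for each replicate against its control at q 0.01, kept peaks found in all replicates and joined those within 250 bp. Bowtie2, SAMtools and MACS2 stand without a version, beside the build mm10, in the notes of the submitters on processing. The deposited values are positions in bp (chromosome, start, end; other than counts or signal), so the depth behind a peak is unknown, replicates could not be compared, and a missing peak can reflect depth.

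Starts were made 1-based. Genes and TSSs were GENCODE vM21 (basic transcripts), products and sequence RefSeq GRCm38.p6, the same build. RefSeq mature sequences matched 1018 of 2196 miRNA genes. Where several genes enclosed a small RNA, the host was the one with the nearest upstream TSS. Recurrence of 50-bp words (step 5 bp, gene and 250 bp either side, both strands) was counted over the primary assembly, and tested on simulated data. Intervals are 95% Wilson intervals and cover counting only. No test was made between groups. Duplicate and overlapping models were counted as annotated (5105 loci for 5136 genes). Named were all scaRNA genes and symbol-named snRNA genes with a peak, the 15 widest peaks, peaks with 3 or more genes, named genes at peaks with no TSS, and members of each family list. Some genes that this rule names are not reported here. Genes at the edge of the overlap rule and copies of snRNA genes were chosen after their values were seen. Members and lists were chosen with earlier results of these data known. Python 3.11.15, numpy 2.4.6, pandas 2.3.3, scipy 1.17.1, numba 0.67.0 and matplotlib 3.10.9 were used. Alternatives were the overlap, peak width, gene models, recurrent words, TSS set and distance, and host definition.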

Additional observations from a re-analysis of the deposited data

Results flagged for a closer look

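The list holds 4 peaks outside chromosomes 1 to 19 and X, 1322 to 2626 bp wide, on 3 sequences. They were taken up because they belong to none of the comparisons, and were not matched to genes.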

How the results depend on the processing

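Of 48 alternative values, 36 stayed within the main interval, or within 1.5 times the main count. Without numbered gene models, fewer genes were counted and 183 peaks were left. The shares with a peak became 12.2% of miRNA, 49.7% of snoRNA, 37.5% of scaRNA and 9.09% of snRNA genes. Of the covered genes, 77.8% lay in a host. The numbered models left out had lower shares, such as 66 of 1342 snoRNA genes (4.92%). Without genes whose words recur, 11.4% of snoRNA genes had a peak. A host on either strand gave 84.9% and a coding host alone 56.2%. Within 2 kb of the host's 5′ end in place of its nearest TSS, 66.8% were covered. Among alternatives chosen after seeing the data, counting a peak within 250 bp gave 3.55% of snRNA genes, and adding RefSeq and all GENCODE transcripts put 92.8% of the peaks at a TSS. Merging overlapping models moved no value past these limits, and neither did peaks of at least 1000 bp nor asking for the whole gene inside the peak. No paired analysis was possible because the replicates were deposited as 1 consensus list, and no replicate could be left out for the same reason. Presence of a peak depends on depth and on unique reads, which the positions do not show.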
